A study of Mus musculus with 6 samples.

Results

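Complement is a protein cascade of innate immunity. C1q, a hexameric recognition molecule built from the chains encoded by C1qa, C1qb and C1qc, starts the classical pathway, which cleaves C4 and then C3, while properdin, encoded by Cfp, stabilises the C3 convertase of the alternative pathway. The released fragments C3a and C5a act on the G protein-coupled receptors encoded by C3ar1 and C5ar1, and C5ar2 encodes a further C5a receptor that couples poorly to G proteins. In the adult brain microglia are known as the main source of C1q, and complement tagging is known for its part in the removal of synapses. The expression of these 9 genes (C1qa, C1qb, C1qc, C3, C4b, Cfp, C3ar1, C5ar1 and C5ar2), chosen by symbol from the 32285 genes in the matrices, was examined across brain myeloid cells.

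The 6 single-cell libraries came from 3 male C57BL/6J mice at postnatal day 89. The whole brain of each perfused mouse was dissociated by cold Dounce homogenisation without enzymes, live CD45+/CD11b+ cells were sorted, and the cells of each mouse were captured with both the V3.0 and the V3.1 10X Genomics 3′ kit, which gave 3 libraries per kit. Mouse 2 was processed with a cocktail of actinomycin D, triptolide and anisomycin, inhibitors of transcription and translation (DNC-INHIB), and mice 1 and 3 without it (DNC-NONE), so that the inhibitor and mouse 2 cannot be told apart. The meninges were removed before dissociation and CD11b was part of the sort, which limits the border macrophages and lymphocytes that could be recovered.

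Of 29412 barcodes, 19725 had between 1000 and 4000 genes, at most 12000 unique molecular identifiers (UMIs) and at most 15% mitochondrial UMIs. Libraries held 6275898 to 18872816 UMIs. The V3.0 library of mouse 3 stood apart, with a median of 809 UMIs per barcode and 21.5% of its barcodes passing, against 70.0% to 76.8% in the other 5 libraries. Of 19687 distinct passing barcode sequences, 38 occurred in more than 1 library. Cells were assigned to a class when at least 3 of its marker genes had a UMI and its summed marker UMIs were at least 3 times those of every other class, and no complement gene was a marker. This gave 18993 microglia (6071, 7436 and 5486 in mice 1, 2 and 3), 302 neutrophils (119, 101 and 82), 164 monocytes (34, 98 and 32) and 21 border macrophages (7, 9 and 5). For microglia and neutrophils, genes outside the marker lists were checked against the names. Trem2 reached 2416 to 2506 UMIs per 1000000 UMIs (CPM) in microglia against 102 to 119 in neutrophils and 993 to 1413 in border macrophages. S100a8 and S100a9 together made up 37.1% to 38.2% of neutrophil UMIs and 0.0394% to 0.0658% of monocyte UMIs. Cd177, another neutrophil gene, had a UMI in 15.6% to 41.2% of the monocytes of a mouse. Such genes are not given here for the names border macrophages and monocytes. The 3′ kits count 1 UMI per captured molecule, so CPM values are compared between genes without a length correction.

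The 3 C1q genes were among the most abundant transcripts of microglia and were nearly as abundant in border macrophages. C1qa, the A chain, measured 9189, 9777 and 9901 CPM in the microglia of mice 1, 2 and 3. C1qb, the B chain, measured 8356, 8951 and 8373 CPM, and C1qc, the C chain, 6681, 6749 and 6884 CPM. The mice therefore differed little, with a mean of 9623 ± 380 CPM for C1qa (SD, n = 3). Every one of the 18993 microglia had a C1qa UMI, and 18992 had a C1qb and a C1qc UMI.

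In border macrophages C1qa stood at 7681, 7479 and 8712 CPM, C1qb at 7780, 6184 and 7268 CPM and C1qc at 6284, 4260 and 5011 CPM. All 9 of these values lay below the microglial value of the same gene in every mouse. The fitted log2 differences from microglia were −0.36 (SE 0.21) for C1qa, −0.36 (SE 0.19) for C1qb and −0.47 (SE 0.20) for C1qc, with adjusted p of 0.297, 0.244 and 0.138 in edgeR's quasi-likelihood test. A gene was called when its Benjamini-Hochberg adjusted p over all tested genes was under 0.05 and its log2 fold change was beyond 0.58 in either direction, and none of the trio passed. With only 21 cells these intervals are wide: the 95% interval for C1qc ran from −0.87 to −0.08. Narrower gates went beyond it: with at least 4 markers (8 cells) C1qa, C1qb and C1qc were called lower at −0.91, −0.92 and −0.83, and with 10 times dominance (3 cells) at −1.88, −2.05 and −2.06, although their pooled C1qa levels were 7932 and 7731 CPM. C1qc was also called lower with V3.1 alone, at −0.77, and with no filter on low counts, at −0.59. Over the 16 alternatives the adjusted p ran from 4.91e-09 to 0.881 for C1qa, from 4.72e-09 to 0.705 for C1qb and from 2.52e-09 to 0.602 for C1qc. Per total UMIs C1qa, C1qb and C1qc reached 74.1% to 81.1% of the microglial level in the 21 cells, beside 8.24% to 49.2% for the microglial genes Trem2, Gpr34 and Olfml3.

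Neutrophils gave 414, 448 and 528 CPM of C1qa, 410, 454 and 446 CPM of C1qb and 294, 324 and 315 CPM of C1qc. A C1qa UMI was present in 40.4% of neutrophils, at a median depth of 5726 UMIs against 3511 in microglia. As a share of the microglial level these were 4.74%, 5.06% and 4.58%, and Trem2, Gpr34 and Olfml3, which are not neutrophil genes, stood at 4.46%, 5.43% and 4.47%. The trio was thus present in neutrophils in about the same proportion as other microglial transcripts. It was unevenly spread: the 30 neutrophils with the most C1q UMIs held 86.0% of the C1q UMIs of the class. In these 30 cells C1qa measured 3881 CPM, and in the other 272 it measured 71.2 CPM. P2ry12, a microglial marker, sat in the same cells, at 1464 CPM against 18.6. The part of microglial RNA in these barcodes was not tested, and the C1q values of the class are not read as expression by neutrophils.

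Monocytes held less again. C1qa was at 60.4, 50.4 and 118 CPM, C1qb at 68.4, 70.1 and 73.6 CPM and C1qc at 24.1, 37.8 and 83.5 CPM, or 0.645% to 0.820% of the microglial level against 0.482% to 2.38% for the same 3 genes, and these too are not read as expression by the class. The fitted differences from microglia were −3.04 to −3.19 in neutrophils and −6.67 to −7.00 in monocytes on the log2 scale. All 6 passed the test, and no value of either class overlapped those of microglia.

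**Figure D1:**
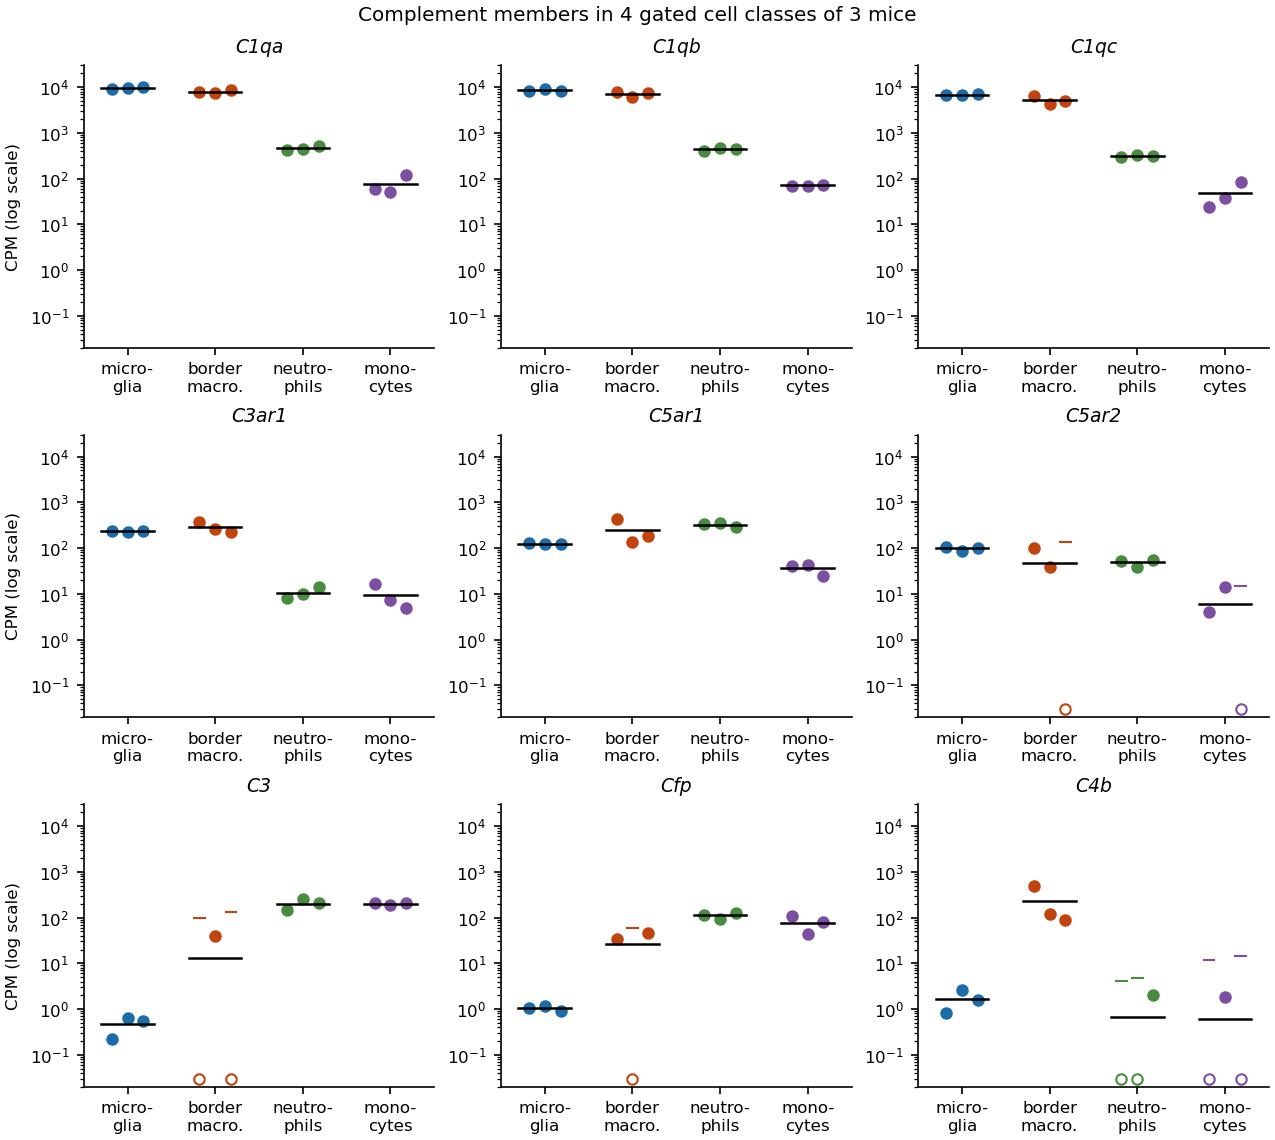
Level of each of the 9 complement genes (CPM, log axis) in microglia, border macrophages, neutrophils and monocytes, with 1 point per mouse (3 mice), a black line at the mean, an open circle at the base for a mouse with 0 UMIs and a short coloured bar at the CPM that 3 UMIs would give. C1qa, C1qb and C1qc lie above 4000 CPM in both macrophage classes, while C3 and Cfp are highest in neutrophils and monocytes and C4b in border macrophages.

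The C1q genes are neighbours. They lie on the minus strand of chromosome 4 in the order C1qb (chr4:136880129-136886187), C1qc (chr4:136889804-136893065) and C1qa (chr4:136895917-136898803) in GRCm38, each with 3 exons, within 18675 bases and with gaps of 3616 and 2851 bases that hold no other annotated gene. The 250 bases before the RefSeq start of C1qb (chr4:136886201-136886450, minus strand) and of C1qc (chr4:136892915-136893164, minus strand) are shown, 5′ to 3′, with matches to searched letters in capitals.
C1qb: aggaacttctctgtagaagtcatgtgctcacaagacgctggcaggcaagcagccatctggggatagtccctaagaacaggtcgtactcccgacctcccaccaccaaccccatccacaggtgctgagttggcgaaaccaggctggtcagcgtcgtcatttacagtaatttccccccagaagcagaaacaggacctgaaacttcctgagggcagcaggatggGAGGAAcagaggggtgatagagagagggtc
C1qc: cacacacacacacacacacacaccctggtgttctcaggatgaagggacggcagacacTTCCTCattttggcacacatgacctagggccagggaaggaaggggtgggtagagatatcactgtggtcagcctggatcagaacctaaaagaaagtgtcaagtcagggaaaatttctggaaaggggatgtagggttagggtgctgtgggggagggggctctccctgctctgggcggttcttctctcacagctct
The letters searched on both strands were GAGGAA, the core that the myeloid factor PU.1 recognises, TGANTCA for AP-1, TTGCNNAA for C/EBP factors, TATAAA and CCAAT. Of 32851 such RefSeq windows, 23.3% held GAGGAA, 6.75% TGANTCA, 9.56% TTGCNNAA, 12.4% TATAAA and 33.8% CCAAT. C1qb held GAGGAA 30 bases before the start, and C1qc held it on the opposite strand, as TTCCTC, 193 bases before the start. Upstream sequences were found for 7 of the 9 genes.

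Within microglia the C1q trio made up 2.30% to 2.68% of all UMIs in the 6 libraries, and its composition hardly varied. C1qa supplied 37.5% to 39.4% of the trio, C1qb 33.1% to 35.4% and C1qc 26.0% to 28.1%. To compare cells at equal depth, each microglial cell was thinned to 2000 UMIs, which left 18233 cells and dropped 760 shallower ones. A cell then held a mean of 19.3 C1qa, 17.1 C1qb and 13.6 C1qc UMIs. The summed C1q UMIs had a median of 49 with a 5th percentile of 32 and a 95th of 72, and 37 cells held fewer than 20. No subset of microglia without C1q was therefore seen at this depth. Library medians lay between 45 for mouse 3 with V3.0 and 53 for mouse 2 with V3.1.

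From cell to cell the 3 transcripts went together. The correlation of C1qa with C1qb over the cells of a library was 0.323 to 0.402 in the 6 libraries (at least 880 cells each). For C1qa with C1qc it was 0.252 to 0.336 and for C1qb with C1qc 0.280 to 0.342. These are descriptions of cells that share a library and a fixed depth. For C1qa with the receptor genes the values were near 0: C1qa with C3ar1 gave 0.0109 to 0.0547 and C1qa with C5ar1 0.00965 to 0.0575. The receptor genes averaged only 0.468 (C3ar1) and 0.248 (C5ar1) UMIs per thinned cell. Counting error keeps r low at such counts, so these values cannot be set against those of the C1q trio.

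**Figure D2:**
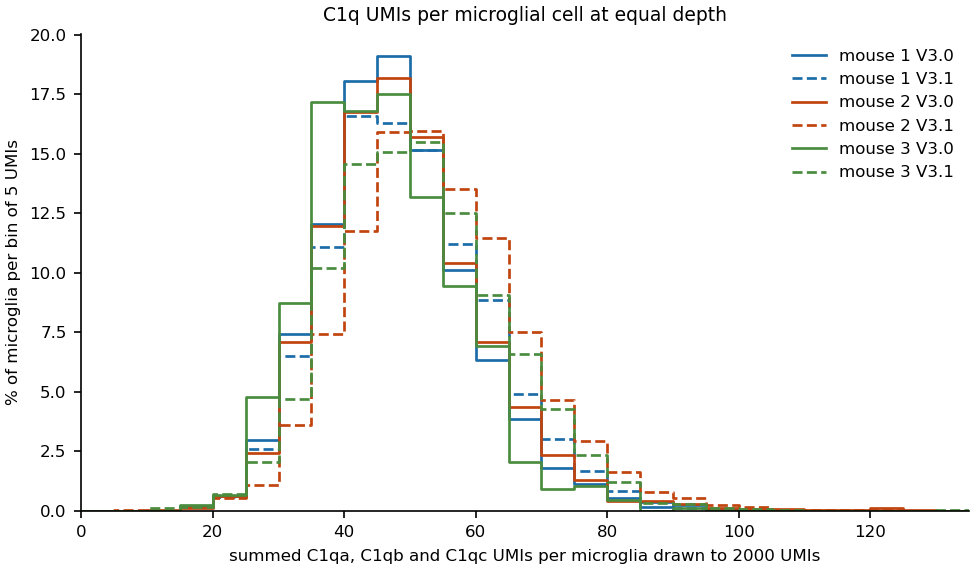
Distribution of summed C1qa, C1qb and C1qc UMIs per microglial cell after thinning every cell to 2000 UMIs, as the percent of cells in each bin, with 1 line per library (6 libraries). The distributions have a single peak with library medians from 45 to 53 UMIs.

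Across the 12 sums of 4 classes by 3 mice, the genes whose log2(CPM + 1) followed C1qa most closely were C1qc (Pearson r = 0.997) and C1qb (0.996), then Tln2 (0.978), Sft2d2 (0.976) and Fcrls (0.974), of 4883 genes with at least 50 CPM in a class. Fcrls was a microglial marker of the gate. These r values describe 12 sums in which the 4 classes differ strongly. The C1q of the neutrophil and monocyte sums among them is not read as expression by those classes. Tln2 stood at 55.8 CPM in microglia and 54.3 CPM in border macrophages.

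C3, the central component that every pathway cleaves, was found in neutrophils and monocytes and was close to 0 in microglia. The gene lies on the minus strand of chromosome 17 (chr17:57203970-57228136, up to 41 exons). Neutrophils of mice 1, 2 and 3 held 146, 253 and 204 CPM and monocytes 209, 185 and 211 CPM, so that these classes overlapped. Microglia held 0.22, 0.64 and 0.56 CPM, which are 33 UMIs in 32 of 18993 cells (0.168%), with 54.0% of neutrophils and 47.0% of monocytes carrying a C3 UMI. Pooled, the microglial level was 0.243% of the neutrophil level, beside 0.210% for S100a8, 0.212% for S100a9 and 0.0870% for Cd177, which are neutrophil genes. The 32 microglia with a C3 UMI held 361 CPM of the neutrophil gene S100a8 against 376 in the others and 304 CPM of S100a9 against 416. Their Apoe was 5081 CPM against 397, although only 34.4% of them had an Apoe UMI, against 24.1% of the others. The part of neutrophil RNA in these cells was not tested.

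The fitted log2 differences of C3 from microglia were 9.88 (SE 0.22, adjusted p = 1.10e-34) in neutrophils and 8.88 (SE 0.28, adjusted p = 3.35e-29) in monocytes. C3 passed the filter on low counts through the neutrophil and monocyte sums, as microglia held at most 0.64 CPM. Being called is therefore not separate support for these differences. In border macrophages 1 cell of mouse 2 held 2 C3 UMIs, 39.3 CPM, and mice 1 and 3 held 0, where 3 UMIs would give 99.7 and 135.4 CPM. The pooled ratio to microglia was 40.4, with a counting interval from 4.70 to 158, and the fitted difference of 5.25 (SE 1.90, adjusted p = 0.0721) was not called. With the mouse as a block it was called, at an adjusted p of 0.0233, within a range of 6.72e-06 to 0.957 over all alternatives. Border macrophages were lower than neutrophils by a log2 difference of −4.64 (SE 0.64, adjusted p = 1.86e-07).

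The 250 bases before the RefSeq start of C3 (chr17:57228137-57228386, minus strand) are shown because its pattern was the reverse of that of the C1q genes. The capitals mark TTGCNNAA, 45 bases before the start.
C3: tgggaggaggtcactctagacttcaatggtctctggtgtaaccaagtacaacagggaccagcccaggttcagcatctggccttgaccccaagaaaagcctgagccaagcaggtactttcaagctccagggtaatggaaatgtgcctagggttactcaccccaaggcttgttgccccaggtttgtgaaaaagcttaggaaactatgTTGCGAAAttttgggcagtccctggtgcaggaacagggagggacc
None of the other letters searched were in this window.

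Cfp, which lies on the X chromosome (chrX:20925454-20931555, up to 9 exons), followed the same division. Neutrophils held 113, 95 and 127 CPM, monocytes 109, 43.2 and 78.6 CPM and microglia 1.07, 1.17 and 0.91 CPM. The values of neutrophils and monocytes overlapped, and all lay far above those of microglia. A Cfp UMI was found in 46.7% of neutrophils, 21.3% of monocytes and 0.379% of microglia. The log2 differences from microglia were 7.94 (SE 0.26, adjusted p = 5.99e-29) in neutrophils and 6.24 (SE 0.37, adjusted p = 5.40e-19) in monocytes. Like C3, Cfp passed the filter on low counts through the neutrophil and monocyte sums, so these calls are not separate support for the differences. At 0.958% of the neutrophil level, Cfp in microglia lay above the shares of S100a8 and S100a9 in every mouse (0.716% to 1.23%, against at most 0.264%), although it rested on 73 UMIs in 72 cells. In border macrophages there was 1 UMI in mouse 1, 1 in mouse 3 and none in mouse 2, a ratio of 18.3 to microglia with a counting interval of 2.17 to 68.4. The fitted difference of 4.14 (SE 1.71, adjusted p = 0.122) was not called. DESeq2 called it on the same UMIs, at an adjusted p of 0.000536, within a range of 0.000536 to 0.435 over the alternatives.

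Over the 12 sums the genes closest to C3 were Cd300lb (r = 0.997), Pilrb2 (0.994), E2f2 (0.990), Nedd9 (0.987) and Vav3 (0.986), and those closest to Cfp were Ethe1 (0.966), Sem1 (0.949), Alox5ap (0.934), Mrtfa (0.932) and Tmem71 (0.929). Cd300lb stood at 106 CPM in neutrophils and 88.6 in monocytes against 0.495 in microglia. Alox5ap, the activating protein of leukotriene synthesis, stood at 1365 CPM in neutrophils, 1582 in monocytes and 465 in microglia. The 2 lists share no gene, and C3 and Cfp themselves correlated at 0.610. In the border macrophage sums C3 held 2 UMIs, in mouse 2, and Cfp held 1 in mouse 1 and 1 in mouse 3. Single UMIs thus enter these r values and ranks, and how far they set them was not tested.

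C4b, the mouse C4 component of the classical pathway, was the only one of the 9 genes called in border macrophages against microglia, where 9.77% of 7797 tested genes were called. It lies on chromosome 17 (chr17:34728380-34743882, minus strand), and a near-identical copy, C4a (chr17:34809092-34823464), makes the assignment of reads uncertain. Border macrophages of mice 1, 2 and 3 held 15, 6 and 2 C4b UMIs, which are 499, 118 and 90.3 CPM, in 8 of 21 cells. Microglia held 0.80, 2.64 and 1.57 CPM, or 119 UMIs in 75 of 18993 cells. All border macrophage values lay above all microglial values, with a log2 difference of 6.99 (SE 0.72, adjusted p = 4.77e-10) and a pooled ratio of 129 with a counting interval of 78.6 to 203.

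The call rests on few cells, and single cells of mouse 1 held 7 and 6 of the 23 UMIs. The filter on low counts kept C4b through the border macrophage sums alone, as the other classes held at most 2.64 CPM. Being called whenever it passed this filter is therefore not separate support for the difference. In 12 of 16 alternatives, among them the fit without the filter, C4b was tested and called each time, with log2 differences of 5.62 to 7.87. In the other 4 it failed the filter on low counts: V3.1 alone, at least 4 markers, 10 times dominance, and without the V3.0 library of mouse 3, where 21 UMIs in mice 1 and 2 remained at 220 CPM. Neutrophils and monocytes held 1 C4b UMI each, and the neutrophil ratio to microglia of 0.311 had a counting interval of 0.0078 to 1.77. Border macrophages exceeded neutrophils by 7.39 (SE 1.08, adjusted p = 4.92e-07). Among microglia, the 75 cells with a C4b UMI held 7380 CPM of Apoe against 368 CPM in the others. An Apoe UMI was present in 60% of them against 24.0%, and a UMI of Mrc1, a border macrophage marker, in 18.7% against 1.25%. The part of border macrophage RNA in these cells was not tested.

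The receptors showed yet other patterns. C3ar1, the C3a receptor (chr6:122847138-122856161, 2 exons), was shared by microglia and border macrophages. Microglia held 241, 229 and 240 CPM, border macrophages 366, 255 and 226 CPM, neutrophils 8.17, 9.67 and 13.9 CPM and monocytes 16.1, 7.19 and 4.91 CPM. The first pair overlapped and differed by 0.22 on the log2 scale (SE 0.29, adjusted p = 0.718, 95% interval −0.35 to 0.79). Over the 16 alternatives this difference ran from −2.20 to 0.62 and the adjusted p from 0.0267 to 0.989, with a call in 1 of them. Neutrophils and monocytes fell below microglia, at −3.28 (SE 0.24) and −4.47 (SE 0.29) on the log2 scale, with adjusted p of 7.04e-16 and 1.13e-17. In neutrophils C3ar1 stood at 4.33% of the microglial level, beside 4.46% to 5.43% for the microglial genes, and 17 of its 19 UMIs lay in the 30 cells richest in C1q (90.5 CPM, with 2 UMIs in the other 272).

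The 250 bases before the RefSeq start of C3ar1 (chr6:122856158-122856407, minus strand) are shown as those of the receptor with a macrophage pattern, with TATAAA 235 bases and a TGANTCA match 22 bases before the start in capitals.
C3ar1: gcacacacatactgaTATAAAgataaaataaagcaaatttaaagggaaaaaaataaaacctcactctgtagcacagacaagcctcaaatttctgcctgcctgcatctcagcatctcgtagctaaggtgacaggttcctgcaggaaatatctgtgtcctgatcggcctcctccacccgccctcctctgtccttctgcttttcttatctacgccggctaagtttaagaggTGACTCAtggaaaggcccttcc
No GAGGAA was among the letters of this window.

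C5ar1, the signalling C5a receptor (chr7:16246743-16259540), was present in all 4 classes and highest in neutrophils. Neutrophils held 328, 353 and 286 CPM, border macrophages 432, 137 and 181 CPM, microglia 132, 122 and 121 CPM and monocytes 40.3, 43.2 and 24.6 CPM. All neutrophil values lay above all microglial values, and all monocyte values below them, while border macrophages overlapped neutrophils. A C5ar1 UMI was present in 80.1% of neutrophils, 52.4% of border macrophages, 31.2% of microglia and 16.5% of monocytes. It was not concentrated in the neutrophils that held the C1q UMIs, at 287 CPM in those 30 cells beside 329 CPM in the other 272.

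The log2 differences of C5ar1 from microglia were 2.62 in neutrophils (SE 0.12, adjusted p = 1.43e-23), −1.45 in monocytes (SE 0.24, adjusted p = 1.06e-06) and 0.87 in border macrophages (SE 0.36, adjusted p = 0.125). The last was called in 3 of 16 alternatives, among them DESeq2 at an adjusted p of 0.00584, within a range of 0.00303 to 0.840. The border macrophages stood at −1.76 against neutrophils under TMM scaling (SE 0.29, adjusted p = 4.25e-06). Scaling to total UMIs gave −0.45 and an adjusted p of 0.304, within a range of 3.70e-08 to 0.304 over the alternatives. In neutrophils S100a8 and S100a9 take 37.1% to 38.2% of all UMIs, and scaling to totals instead of TMM moved the median log2 difference over all genes by −1.28 for neutrophils against microglia, by 1.3 for border macrophages against neutrophils and by −0.27 for monocytes against microglia.

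C5ar2, the second C5a receptor gene, lies 2588 bases from C5ar1 (chr7:16234585-16244154, minus strand) but was distributed differently. Microglia held 108, 85.0 and 101 CPM, neutrophils 51.8, 38.7 and 55.6 CPM, border macrophages 99.7, 39.3 and 0 CPM (3, 2 and 0 UMIs) and monocytes 4.02, 14.4 and 0 CPM. Per total UMIs all neutrophil values lay below all microglial values. The direction depended on the scaling: the log2 difference of neutrophils from microglia was 0.24 with TMM (SE 0.20, adjusted p = 0.292) and −1.04 with totals (adjusted p = 1.87e-06, range 1.87e-06 to 0.977 over the alternatives). With cells from 500 genes and no upper limit on genes or UMIs it was 0.60 and called as higher in neutrophils. Monocytes were lower than microglia by −3.20 (SE 0.38, adjusted p = 1.08e-09), and border macrophages, at −1.04 (SE 0.67, adjusted p = 0.359), could not be separated from microglia.

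**Figure D3:**
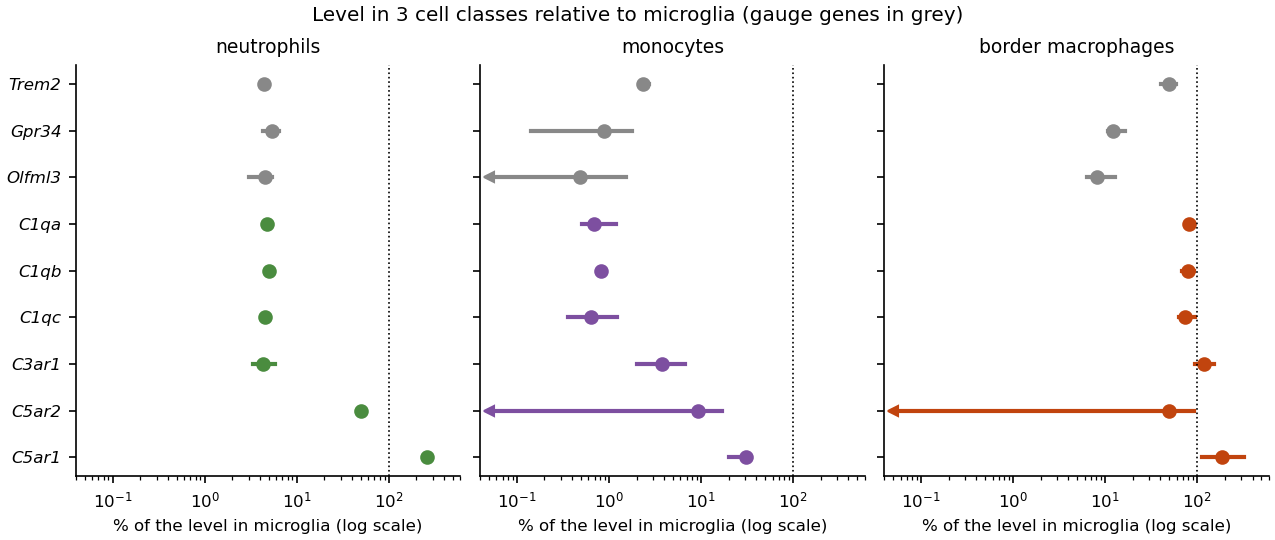
Level of the C1q and receptor genes in neutrophils, monocytes and border macrophages as a percent of the microglial level (log axis), with the pooled value as a point, the range over 3 mice as a line and an arrow where a mouse had 0 UMIs; grey marks the microglial genes Trem2, Gpr34 and Olfml3. In neutrophils C1qa, C1qb, C1qc and C3ar1 lie with the grey genes near 5%, while C5ar2 is at 49.9% and C5ar1 at 260% per total UMIs.

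Counted over the 9 genes, 7 were called in neutrophils against microglia, 3 higher (C3, Cfp and C5ar1) and 4 lower (C1qa, C1qb, C1qc and C3ar1), in a comparison in which 66.4% of 7797 tested genes were called, 26.6% higher and 39.8% lower. In monocytes 8 were called, 2 higher and 6 lower, against 55.9% of all genes (25.5% higher and 30.4% lower). Between border macrophages and neutrophils 8 were called, 5 higher and 3 lower, against 27.8% (9.7% higher and 18.1% lower). C5ar2 was the member not called in the first and the last of these, and C4b in the first and the second. The first and the second share the microglial sums and the first and the last the neutrophil sums, so the counts are not independent of each other. C3 and Cfp entered these tests through the neutrophil and monocyte sums and C4b through the border macrophage sums, where each was high. Their calls are therefore not separate support for the differences. Without the V3.0 library of mouse 3 the counts were 7, 8 and 7, with C4b below the filter on low counts in each.

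**Figure D4:**
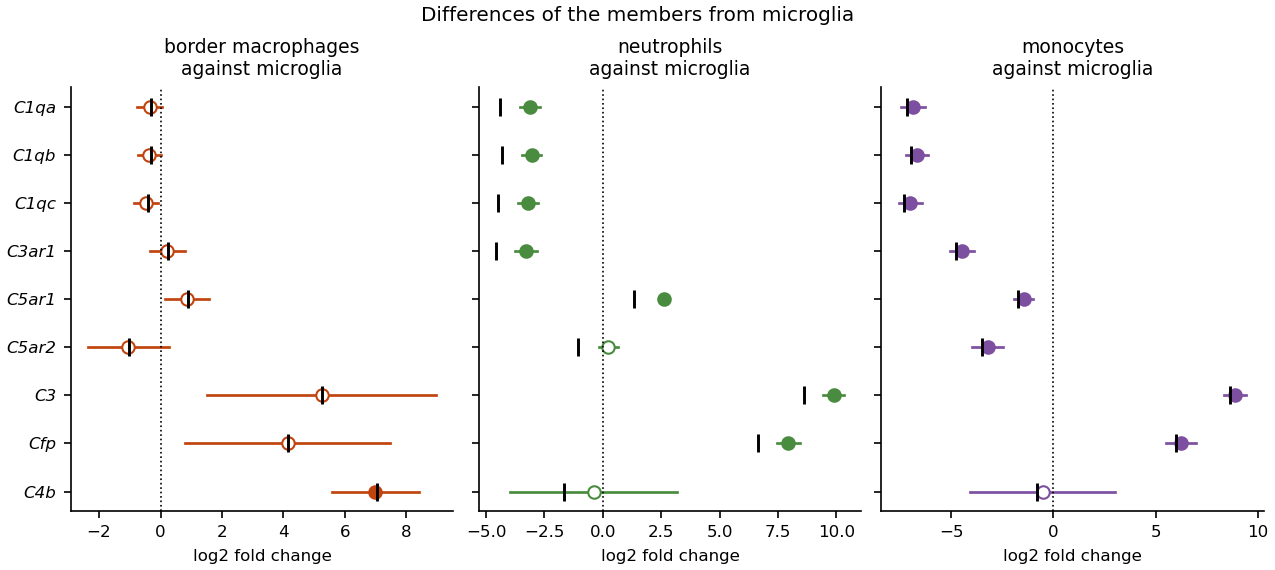
Log2 fold change of the 9 genes from microglia in border macrophages, neutrophils and monocytes (edgeR, TMM scaling), with 95% intervals as lines, filled points for called genes, open points for genes not called and a black tick at the value with scaling to total UMIs. C4b is the only filled point in border macrophages, and C5ar2 in neutrophils changes side between 0.24 with TMM and −1.04 with totals.

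C3ar1 was detected in more microglia than the other 2 receptors. After thinning to 2000 UMIs a C3ar1 UMI was present in 34.7% of 18233 cells, a C5ar1 UMI in 20.2% and a C5ar2 UMI in 17.2%. The unthinned shares were 50.8%, 31.2% and 27.5%, against 3.66%, 16.5% and 5.49% in monocytes, whose median depth was 5203 UMIs. At least 1 receptor was seen in 56.1% of the thinned cells and all 3 in 1.29%. As a mean of the libraries all 3 were seen in 1.32%, beside 1.24% if they had been detected independently. C5ar1 was seen in 22.0% of cells with C3ar1 and in 19.2% of those without, and C5ar2 in 17.5% of cells with C5ar1 and 17.1% of those without. Over the cells of a library the correlation of C3ar1 with C5ar1 was 0.0214 to 0.0869, and that of C5ar1 with C5ar2 was −0.0157 to 0.0225. Counting error limits such values at these low UMI counts. A few microglia stood out for C5ar1, with 59 cells at 5 or more UMIs and 1 at 26.

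C5ar2 was the single member with a UMI in 0.5% to 20% of the thinned microglia, the range fixed for asking which genes go with detection. Cells with and without a C5ar2 UMI were summed per mouse and compared at equal depth. Of 11046 tested genes 0 were called (0%) by edgeR, with 223 at an unadjusted p under 0.05, and DESeq2 called 1, H2-Aa. With the mouse as a block 4 genes were called, all higher with C5ar2 in the fit: H2-Aa by 1.60 (SE 0.21), H2-Eb1 by 1.78 (SE 0.24), H2-Ab1 by 0.85 (SE 0.17) and Cd74 by 0.70 (SE 0.11) on the log2 scale. All 4 belong to MHC class II antigen presentation and are named after their values were seen. Their numbers are small: cells with C5ar2 held 33, 44 and 20 H2-Aa UMIs in mice 1, 2 and 3, and cells without held 33, 73 and 51. Per 1000 cells H2-Eb1 gave 42.6, 37.4 and 6.42 UMIs in the 1128, 1070 and 935 cells with C5ar2, and 5.18, 8.33 and 13.1 in those without. Cd74 gave 135.6, 129.9 and 46.0 UMIs with and 58.7, 76.1 and 60.6 without. In mouse 3 both were thus lower with C5ar2, while H2-Aa and H2-Ab1 were higher in all 3 mice. None of the 5 other complement genes tested was called, with C1qa at −0.03 (95% interval −0.12 to 0.07), C3ar1 at 0.02 (−0.11 to 0.16) and C5ar1 at 0.03 (−0.13 to 0.18).

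The series was made to compare the 2 kit versions, and in microglia no member was called between them, where 3.05% of 12028 tested genes were called. C1qa measured 9148, 9413 and 9031 CPM with V3.0 in mice 1, 2 and 3 and 9245, 10203 and 10071 CPM with V3.1. C1qb measured 8257, 8610 and 7821 CPM with V3.0 and 8490, 9350 and 8480 CPM with V3.1. C1qc measured 6486, 6330 and 6102 CPM with V3.0 and 6943, 7240 and 7037 CPM with V3.1.
All 3 were higher with V3.1 in 3 of 3 mice, as were 25% of all tested genes. Only C1qc showed no overlap, all V3.1 values lying above all V3.0 values, which held for 14.5% of genes. Its log2 difference was 0.18 (SE 0.06, adjusted p = 0.0676), and those of C1qa and C1qb were 0.11 each (SE 0.07, adjusted p = 0.273 and 0.325). This edgeR fit did not pair the 2 libraries of a mouse. With the mouse as a block, which pairs them, the adjusted p was 0.00451 for C1qc, 0.0619 for C1qa and 0.0643 for C1qb. The differences stayed at 0.18, 0.11 and 0.11. Of the 8 tested members 1 had an unadjusted p under 0.05, and DESeq2 called 0. Over all alternatives, including those without the V3.0 library of mouse 3, the difference of C1qc stayed between 0.10 and 0.22, short of the 0.58 required for a call, with adjusted p from 0.00451 to 0.333.

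No receptor was called between the kits. C3ar1 measured 248, 226 and 233 CPM with V3.0 and 232, 233 and 241 CPM with V3.1, a log2 difference of 0.02 (95% interval −0.11 to 0.14). C5ar1 measured 135.4, 119 and 119 CPM against 128, 125 and 121 CPM, a difference of 0.01 (−0.12 to 0.15). C5ar2 measured 102, 81.1 and 107 CPM against 116, 89.4 and 99.5 CPM, a difference of 0.11 (−0.10 to 0.31).
In each case the kits overlapped. The coefficient of variation over the 6 libraries was 3.26% for C3ar1, 5.0% for C5ar1, 5.22% for C1qa and 12.5% for C5ar2. The share of thinned microglia with a C3ar1 UMI was 34.9% ± 1.14 with V3.0 and 34.5% ± 1.04 with V3.1 (SD, n = 3 libraries each). An exact two-sided permutation test, which did not pair the libraries of a mouse, gave p = 0.8. None of the 9 shares passed the test, with an adjusted p of 1 for each, in a design whose smallest possible p is 0.10.

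C4b varied most, with 0.93, 3.71 and 1.55 CPM for V3.0 and 0.63, 1.39 and 1.57 CPM for V3.1. Its log2 difference between the kits was −0.81 (SE 0.48, adjusted p = 0.281). With the mouse as a block it was −0.89 and was called at an adjusted p of 0.0499, within a range of 0.0499 to 0.911 over the alternatives. The kits overlapped, and the V3.0 library of mouse 2 held 53 UMIs in 25 of 4114 cells. Cfp, at 0.62 to 1.31 CPM, differed by −0.02 (SE 0.36), and C3, at 0.21 to 0.74 CPM, was below the filter on low counts.

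**Figure D5:**
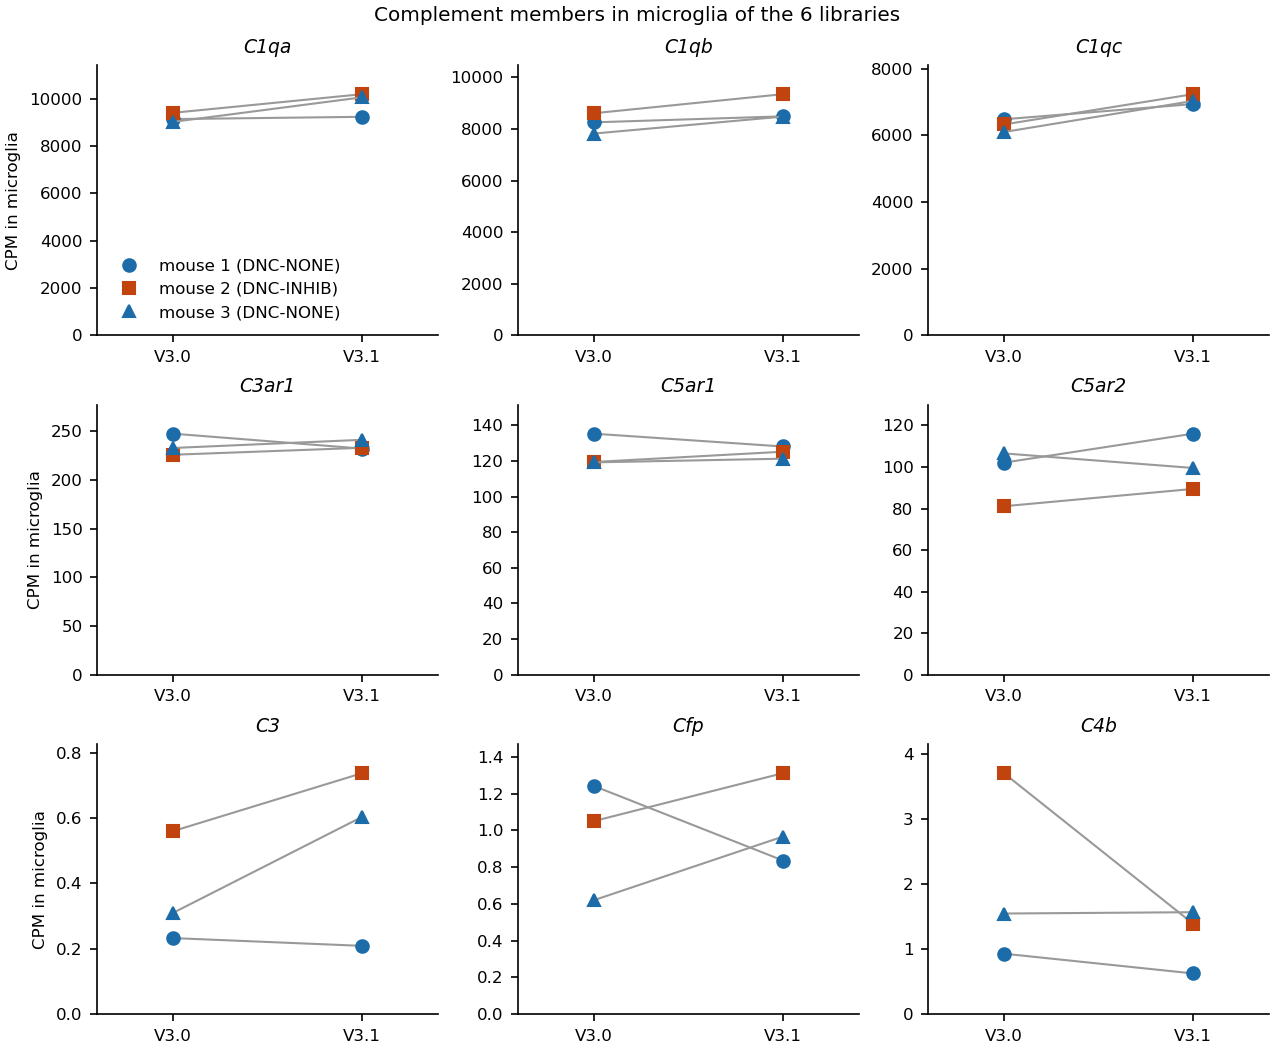
Level of each complement gene in microglia (CPM, linear axes from 0) in the 6 libraries, with a line joining the V3.0 and V3.1 libraries of a mouse, blue for DNC-NONE and orange for DNC-INHIB. All 3 C1q genes are higher with V3.1 in each mouse without being called, and the V3.0 library of mouse 2 is highest for C4b at 3.71 CPM.

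None of the 9 genes was called between the mouse with inhibitors and the mice without, a comparison of 1 mouse with 2 in which 0.872% of 13194 tested genes were called. At an unadjusted p under 0.05 there were 2 members, C4b and C5ar2, and DESeq2 called 0. Mouse 2 has no replicate, so the fit has 1 residual degree of freedom, from the 2 mice without inhibitors. The edgeR fit shares this spread among all tested genes, so the SE and p of a gene do not measure its own spread between mice. C4b stood at 2.64 CPM with inhibitors and at 0.80 and 1.57 CPM without, a log2 difference of 1.19 (SE 0.37, adjusted p = 0.0786). When all genes were kept whatever their counts it was called, at an adjusted p of 0.0419, within a range of 0.0419 to 1 over the alternatives. The difference was 0.72 without mouse 1 and 1.65 without mouse 3.
C5ar2 was lowest in the mouse with inhibitors, at 85.0 CPM against 108 and 101 CPM, a difference of −0.28 (SE 0.10, adjusted p = 0.199). The C1q genes differed by 0.05, 0.11 and 0.01 for C1qa, C1qb and C1qc (SE 0.10 each), C3ar1 by −0.06 (SE 0.10) and C5ar1 by −0.04 (SE 0.10). These values and the mouse cannot be told apart.

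The wider pathway was followed in a list of 59 complement genes, 50 of them outside the 9. In microglia 22 of the 50 had no UMI, among them Hc, which encodes C5, the terminal components C6, C7, C8a, C8b and C9, and Serping1, the C1 inhibitor. Well detected were Itgam, the alpha chain of complement receptor 3, at 625.2 CPM, Calr at 544 CPM and Lrp1 at 339 CPM. Itgam encodes CD11b, on which all the cells were sorted, so its detection was selected for. Its differences between classes are likewise differences among cells chosen for CD11b. In border macrophages against microglia 12 of the 50 were tested, of which 1 was higher and 3 were lower. Cd93, once described as a C1q receptor, rose by 8.21 (SE 0.78), with 66.5 to 226 CPM against 0.45 to 0.68 CPM in microglia. The border macrophage sums held only 30076, 50941 and 22153 UMIs in mice 1, 2 and 3, so this rise rests on few Cd93 UMIs. Its lowest value was under the 99.7 CPM that 3 UMIs would give in mouse 1. Itgam stood at −2.25 (SE 0.37) and Lrp1 at −1.70 (SE 0.41), while Csmd3, at 205 CPM in microglia, had 0 UMIs in the 21 cells, where 3 counts would put a UMI in 14.3% of them. The median log2 difference of the 21 tested genes of the list was −0.29, beside −0.53 for all tested genes.

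In neutrophils against microglia the same 12 genes gave 5 higher and 5 lower. Cd55, a membrane inhibitor of the C3 convertase, was at 54.5 to 57.5 CPM in neutrophils and at most 0.20 CPM in microglia, and Fcnb, a ficolin of the lectin pathway, at 19.1 to 113 CPM against at most 0.45. The microglial sums alone would not have carried Cd55 or Fcnb past the filter on low counts. Itgb2, the beta chain that pairs with Itgam, rose by 2.12 (SE 0.13) and Cd93 by 3.76 (SE 1.03). Lower were C1qbp at −2.93 (SE 0.37), Csmd3 at −2.68 (SE 0.25) and Lrp1 at −2.41 (SE 0.21). The median over the list was −0.23, beside −0.36 for all genes.

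In monocytes 3 of the 12 were higher and 6 lower, with Cd93 up by 6.42 (SE 0.51), Itgax, the alpha chain of complement receptor 4, by 4.18 (SE 0.40) and Itgb2 by 1.3 (SE 0.14). Lower were Itgam at −0.96 (SE 0.17) and C1qbp at −0.91 (SE 0.24), and Csmd3 had 0 UMIs in 164 cells, where 3 counts would put a UMI in 1.83% of them. The median over the list was −0.91, beside −0.16 for all genes. Between border macrophages and neutrophils 4 of the 12 were higher, among them Cd93 by 4.46 (SE 0.78) and Calr by 1.85 (SE 0.32), and 4 were lower, among them Itgam at −3.57 (SE 0.34) and Itgb2 at −3.25 (SE 0.37). The median over the list was 0.71, beside −0.33 for all genes. Between the kits 1 of 15 tested non-members was called, Cr2, complement receptor 2, which was higher with V3.1 by 1.31 (SE 0.34, adjusted p = 0.0233) at a level of only 1.62 to 2.40 CPM, and with the inhibitors 0 of 19 were called. The list medians there were 0.05 and −0.01, beside 0.00 and −0.01 for all genes.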

How the data were processed

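Matrices of raw UMI counts per gene and barcode, 1 per library, were used as deposited. The authors demultiplexed the reads with bcl2fastq and made the counts with Cell Ranger 5.0.0 on mm10 (GRCm38), as their processing notes and methods state, with all libraries sequenced as a single pool. Libraries held 6275898 to 18872816 UMIs, and intervals from counts cover counting error only. The barcodes in the matrices were filtered as described, and the gate required 3 markers and 3 times dominance, which also leaves out doublets of different classes; no doublet caller was run. UMIs were summed per mouse and class (12 sums in 1 fit), per library, or per mouse, and tested with edgeR 4.0.16 (TMM, filterByExpr, quasi-likelihood F test, Benjamini-Hochberg over all genes tested) in R 4.3.3, after the fits were tested on simulated data. Replicates are separate mice, but both libraries of a mouse share its cells, so p-values between kits measure the spread between libraries. Same-numbered samples come from the same mouse, with correlations of their deviations of 0.333, 0.485 and 0.158 between kits over 500 genes and −0.0214 to 0.188 between classes. Shares of cells were compared by exact permutation. Gene positions came from the GENCODE annotation of GRCm38 and upstream sequences from RefSeq (GRCm38.p6). The alternatives were DESeq2 1.42.0, its size factors, totals, no filter on low counts, mouse as block, each kit alone, cell filters from 500 genes, other gates, other thinning and leaving out each mouse or the V3.0 library of mouse 3. The 9 genes were named in every comparison, the other list genes where called, at most 4 in each direction by size. The members, lists and tests were chosen with earlier results of these data known. Some results on genes withheld from this text are not reported here.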

Additional observations from a re-analysis of the deposited data

Results flagged for a closer look

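The share of microglia with a C5ar1 UMI was 34.6% in the V3.0 library of mouse 1, above the 29.3% to 30.9% of the other 5 libraries by more than Dixon's 95% critical value allows. This library also had the highest median depth of microglia, 3719 UMIs. After thinning to 2000 UMIs its share was 20.8%, still the highest of the 6 libraries, of which the lowest was 19.7%. C4b in microglia reached 3.71 CPM in the V3.0 library of mouse 2, against at most 1.57 CPM elsewhere, and passed the same rule. Chance flags about 1 in 20 such groups, and 2 of the 16 groups examined passed.

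Barcodes outside the cell filter held much of the C3 and Cfp signal. The 9687 failing barcodes held 12.5% of all UMIs but 54.6% of the C3 UMIs and 43.7% of the Cfp UMIs of the series. Among them 1047 barcodes with at least 3 neutrophil markers, with a median of 474 genes, held 82.3% of those C3 UMIs and 74.5% of those Cfp UMIs. The cell filter thus left out many barcodes with neutrophil markers. With a filter from 500 genes and no upper limit on genes or UMIs, 639 neutrophils were assigned in place of 302.

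The 216 passing cells that entered no class held C3 at 36.0 CPM and C4b at 35.0 CPM. The same cells held 15390 CPM of Cd74 and 5444 CPM of H2-Aa, MHC class II genes, 341 CPM of Mrc1 and 5182 CPM of C1qa.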

How the results depend on the processing

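Of 814 member values under alternatives that tested the member, 788 counted as unchanged in direction and side of the threshold. Of the rest 21 gained a call, 2 lost one, 2 moved and 1 reversed. A member that failed the filter on low counts gave no value, so the calls that C4b lost in that way are not among the 2. A change of sign was not counted where neither value was called and 1 lay under its standard error (32 cases, among them C3 in border macrophages against microglia, which rests on 2 UMIs). The reversal was C5ar2 in neutrophils against microglia, at −1.04 with total UMIs. The losses were C5ar1 in border macrophages against neutrophils with totals and C3ar1 there with 10 times dominance, at 2.55, when 3 border macrophages remained. Members called in border macrophages against microglia numbered 1. The count was 4 with DESeq2 (C3, Cfp, C4b and C5ar1), 2 with V3.0 alone and 2 with at least 2 markers. It was 3 with at least 4 markers and 3 with 10 times dominance, both times the C1q trio without C4b. With the mouse as a replicate block it was 2 (C3 added), and without the filter on low counts it was 2. It was 1 to 2 without each mouse in turn and 0 without the V3.0 library of mouse 3, where C4b failed the filter on low counts, and 4 with 1 time dominance, which was chosen after seeing the data and assigned 47 cells. Between kits the count of 0 became 1 with the block (C4b), and with inhibitors 0 became 1 without the filter (C4b). Genes called with C5ar2 numbered 0, and 1 with DESeq2, 4 with the block, 4 without the filter and 0 to 1 without each mouse in turn. Except for the fewer cells or genes named here, the cause of these shifts was not tested. The block changed no other call on a member. In the other 3 class comparisons the count of members called stayed at 6 to 8 of 9 under every alternative. The 21 border macrophages limit every statement on that class, and C3, Cfp and C4b in microglia rest on 33, 73 and 119 UMIs.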
